A study of Mus musculus with 6 samples.

Results

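The maternally methylated imprinted control promoters were followed here as 10 windows of a mouse promoter array, 1 each for Snrpn, Peg3, Kcnq1ot1, Mest, Peg10, Airn, Plagl1, Grb10, Impact and Nnat. The windows were taken by position on the mm9 mouse genome, and every promoter probe inside a window was a member. They held 75 of the 174638 promoter probes, in 10 of 25083 promoter regions. Probes with starts no more than 500 bp from the next were joined into a region, and the 22585 regions with at least 3 probes were tested. Of the windows, 9 were tested, because the Grb10 window held 2 probes. 1 Mest probe was marked as an outlier by the scanner software and was left out, so that 74 probes remained.

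The study asked whether low chromium in the diet of C57BL/6J dams leaves marks on DNA methylation in fat of the offspring. The dams of the LC mice ate a diet reduced in chromium through pregnancy and suckling, and the LC mice themselves ate the control diet after weaning. The CC mice and their dams ate the control diet throughout. DNA came from adipose tissue of female offspring aged 32 weeks, with 3 LC mice and 3 CC mice and 1 array per mouse, and the fat depot was not given in the sources used here. Methylated DNA was pulled down with an antibody to methylated cytosine (MeDIP) and labeled with Cy5, and untreated input DNA of that mouse carried Cy3. Values are log2(MeDIP/input) centered on the median of each array. A value above 0 thus stands for a higher MeDIP/input ratio than that of the typical probe of that array. The tissue label could not be checked against cell markers, because the arrays measure DNA. In whole adipose tissue, a change in the mix of cells and a change within cells cannot be told apart.

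An imprinted gene is expressed from the copy of 1 parent. At a maternally methylated control region the methyl marks are laid down in the oocyte, and in somatic cells the maternal copy keeps them while the paternal copy stays free of them. The zinc finger protein ZFP57 binds a short methylated motif, TGCCGC, in many such regions and protects the marks in the early embryo.

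Promoter sequences are shown for the member with the highest level on the arrays (Peg3) and for the members that differed most between the groups in each direction (Mest and Snrpn). They are RefSeq promoters on GRCm38.p6, 5′ to 3′ on the strand of the gene, with each CpG, the dinucleotide that carries the methyl mark, in capitals. Peg3 is chr7:6730370-6730669 on the minus strand, Mest is chr6:30737800-30738099 on the plus strand and Snrpn is chr7:60005150-60005449 on the minus strand. Where a gene had several starts, the start with the most CpG is shown, and whether it lies inside the mm9 window was not determined, since the builds differ.
Peg3: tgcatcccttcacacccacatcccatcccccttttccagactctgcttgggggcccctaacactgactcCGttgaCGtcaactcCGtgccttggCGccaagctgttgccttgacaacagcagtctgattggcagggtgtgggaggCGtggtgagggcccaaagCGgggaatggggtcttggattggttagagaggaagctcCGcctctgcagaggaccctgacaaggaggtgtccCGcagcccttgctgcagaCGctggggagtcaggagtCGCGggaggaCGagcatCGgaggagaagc
Mest: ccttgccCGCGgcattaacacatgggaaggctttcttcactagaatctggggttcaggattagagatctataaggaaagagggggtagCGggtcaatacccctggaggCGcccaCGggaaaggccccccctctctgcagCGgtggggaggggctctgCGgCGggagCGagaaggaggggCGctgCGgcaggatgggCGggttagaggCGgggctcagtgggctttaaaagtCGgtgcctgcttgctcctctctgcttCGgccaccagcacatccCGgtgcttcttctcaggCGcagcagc
Snrpn: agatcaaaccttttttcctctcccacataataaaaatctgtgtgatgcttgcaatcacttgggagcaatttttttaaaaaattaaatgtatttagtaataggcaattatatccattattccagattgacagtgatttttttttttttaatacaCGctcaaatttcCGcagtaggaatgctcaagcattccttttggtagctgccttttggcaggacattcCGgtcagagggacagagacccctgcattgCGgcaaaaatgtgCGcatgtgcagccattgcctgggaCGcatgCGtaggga

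These promoters differ in CpG content, with 13 CpG in Peg3, 17 in Mest and 7 in Snrpn, against a median of 7 over the 32851 promoters of 300 bases in the table. The table held 8 of the 10 members, with 14 starts, and Peg10 and Impact were not among them. The fewest CpG were 2, at the most distal Snrpn start, and the most were 45, at a Grb10 start. The motif TGCCGC, searched on both strands, was present in 6 of the 14 starts, which belong to Snrpn, Mest, Plagl1, Grb10 and Nnat. 2 of the 6 are Mest starts that nearly coincide and share their matches, so that these are 5 separate promoters. It was present in 11.6% of all promoters of the table. The printed Mest promoter held 2 matches, the printed Snrpn promoter 1 and the Peg3 promoter 0. A match is a description of these letters and was not tested as a binding site.

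The imprinted windows did not stand together at the high end of the array. The median level over the 9 tested windows was -0.18, and the median over all tested regions was -0.15. Of the windows, 8 lay between the 10th and the 90th percentile of all regions (-1.04 and 0.54), 1 lay in the top 10% and 0 in the bottom 10%. There were 4 windows above the median of all regions and 5 below it. Windows are not replicates, and no test was made over them.

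Peg3, a zinc finger protein gene expressed from the paternal copy, had the highest level. Its window on chromosome 7 (mm9, first probe from 6682153, last probe to 6683980) held 9 probes. The LC arrays were at 0.29, 0.67 and 0.57 and the CC arrays at 0.58, 0.71 and 0.66. The mean of the 6 arrays was 0.58. The values of the single arrays lay at the 80.1 to 94.1 percentile of all regions on the same array. LC replicate 1 was the lowest array, and without it the mean level was 0.64. Against the 963 regions made only of 45-base probes, whose median level was 0.38, Peg3 lay at the 56.8 to 75.1 percentile. When the 1 neighboring probe of the same run outside the window was added, the level was 0.28 and Peg3 was no longer in the top 10%. Over probes well above background in both channels, Plagl1 (0.95) and Snrpn (0.80) were above Peg3 (0.70). In that setting, chosen after the data were seen, Plagl1 was in the top 10% and Peg3 was not.

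Peg10, a gene derived from a retrotransposon and needed in the placenta, had the lowest level of the tested windows. Its window on chromosome 6 (4696014 to 4698493) was at -1.01, -0.98 and -0.87 on the LC arrays and at -0.91, -1.06 and -0.96 on the CC arrays. The mean was -0.97, the values of the single arrays lay at the 9.39 to 15.1 percentile of all regions, and the groups overlapped. In 5 of its 11 probes no array had a MeDIP signal well above background. Over its 6 other probes the level was 0.02, where the median of all regions over such probes was 0.34.

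Snrpn encodes a protein of the splicing machinery, and its promoter lies in the imprinting center of the cluster that is lost in Prader-Willi syndrome. Its window on chromosome 7 (67149548 to 67150812) had a mean level of -0.71, and the values of the single arrays lay at the 15.0 to 25.5 percentile. The Grb10 window on chromosome 11 (11927485 to 11927937), in a gene for an adaptor of the insulin receptor, gave measured values between -1.65 and -1.29 over the 6 arrays. Neither of its 2 probes had a MeDIP signal well above background on any array, and the input signal of probe 1 passed that mark on 1 of 6 arrays only, so that the window was given no place in the order of levels.

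The other windows lay near the middle of the array. Plagl1, a zinc finger transcription factor gene, had a mean of 0.14 (range over arrays 0.06 to 0.20). Mest, which encodes an enzyme-like protein linked to fat cell size, had a mean of 0.04 (-0.05 to 0.16). Kcnq1ot1, a long noncoding RNA that silences neighboring genes on the paternal copy, had a mean of -0.01 (-0.08 to 0.06). These 3 windows were all above the median of all regions on every array.

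Impact, whose protein holds back a kinase that senses amino acids, had a mean of -0.18 (-0.29 to -0.06). Nnat, the gene of the small membrane protein neuronatin, had a mean of -0.26 (-0.42 to -0.17). Airn, a noncoding RNA that silences Igf2r on the paternal copy, had a mean of -0.30 (-0.33 to -0.23). In the order of mean levels from Peg3 to Peg10, the ranges over arrays were separate between Peg3 and Plagl1 and between Airn and Snrpn. All other neighbors in the order overlapped. Within arrays, Kcnq1ot1 was nevertheless above Impact on 6 of 6 (mean difference 0.16). The other overlapping pairs kept their order on 4 or 5 of 6 arrays.

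**Figure D1:**
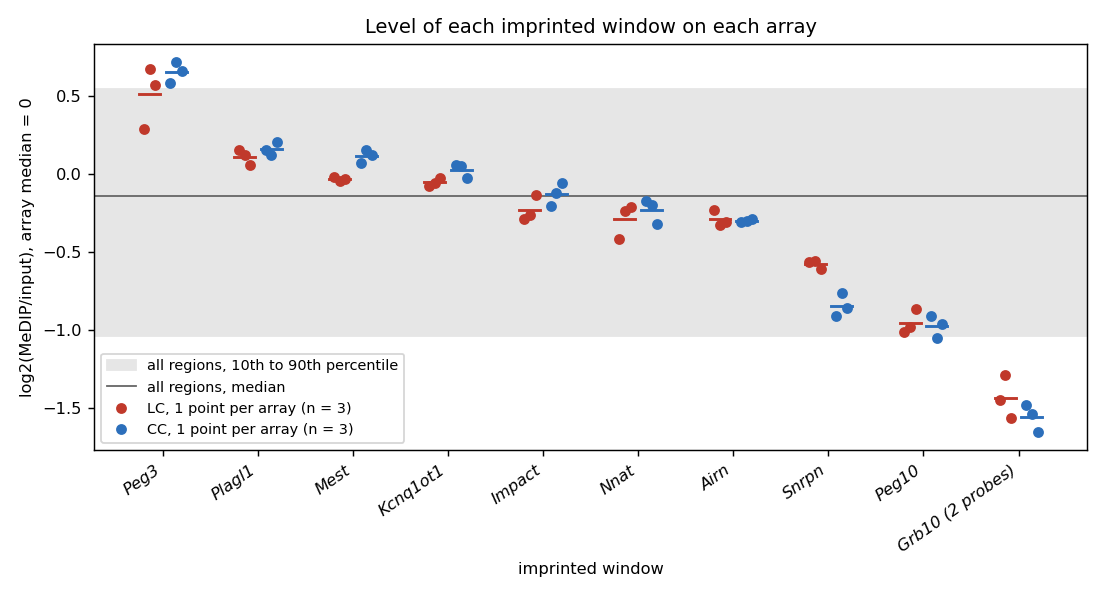
The y axis gives log2(MeDIP/input) with the array median at 0, and the x axis the 10 imprinted windows in order of their mean. Each point is 1 array (3 LC, 3 CC), short lines are group means, the gray band spans the 10th to 90th percentile of all regions and the gray line their median of -0.15. Peg3 lies highest at 0.58, the Grb10 points rest on 2 probes with no MeDIP signal well above background, and the LC and CC points separate for Snrpn, Mest and narrowly Kcnq1ot1.

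The mean of a window hid a wide spread among its probes. Over probes well above background in both channels on all arrays, the tested windows spanned 1.69 (Snrpn, 3 such probes) to 4.21 (Mest, 7 such probes) on the log2 scale. The SD among these probes of a window was 0.72 to 1.58, while the SD of a window probe over the 6 arrays had a median of 0.19. Of the 74 probes, 36 had a mean above 0.

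In Peg3, 6 of 9 probes were above 0, and the values ran from -1.0 at probe 7 to 2.91 at probe 9, the last of the window. Peg10 had its highest probe, probe 8 at 2.41, between probes at -0.61 and -2.62, and its lowest was probe 6 at -3.34. In Snrpn the highest was probe 3 at 1.72 and the lowest probe 2 at -3.55, the next one along. High and low probes thus stood side by side in these 3 windows.

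Mest alternated in the same way, with 2.43 at probe 8 and -2.56 at probe 6. Plagl1 had a high stretch at probes 6 and 7 (2.16 and 2.28) and its lowest value at probe 4 (-3.31). Kcnq1ot1 ran from -1.38 (probe 9) to 1.78 (probe 7). Impact ran from -1.18 (probe 5) to 0.92 (probe 3). Airn ran from -2.43 (probe 4) to 1.5 (probe 5) and Nnat from -1.95 (probe 2) to 0.81 (probe 1). The lowest probes of Peg10, Snrpn, Plagl1, Kcnq1ot1, Impact and Airn had no MeDIP signal well above background on any array, so that their values are upper bounds, and the lowest Mest probe had one on 4 of 6 arrays. The measured values of the Grb10 probes were -0.83 (probe 1) and -2.16 (probe 2), and neither is a measured level.

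Probe length moved with these values. On this array the probes were 45 to 60 bases long, and shorter probes tend to lie in GC-rich DNA. Of the 45-base probes in the windows, 24 of 33 (72.7%) were above 0, and of the longer ones 12 of 41 (29.3%). Over all probes of the array these shares were 65.6% and 34.45%. The 45-base probes of the windows had a median of 0.17 against 0.43 for all 45-base probes, and the longer probes had a median of -0.63 in the windows and over the whole array. The part of probe length in the levels was not tested further.

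In 17 of the 74 probes the MeDIP signal was not well above background on any array. Such a probe gives at most an upper bound for its level, and 3 of the 17 (probe 5 of Snrpn, probe 1 of Peg3 and probe 1 of Grb10) had an input signal that passed that mark on 1 of 6 arrays only, so that they give no bound. Of the 57 other probes, 36 were above 0.

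**Figure D2:**
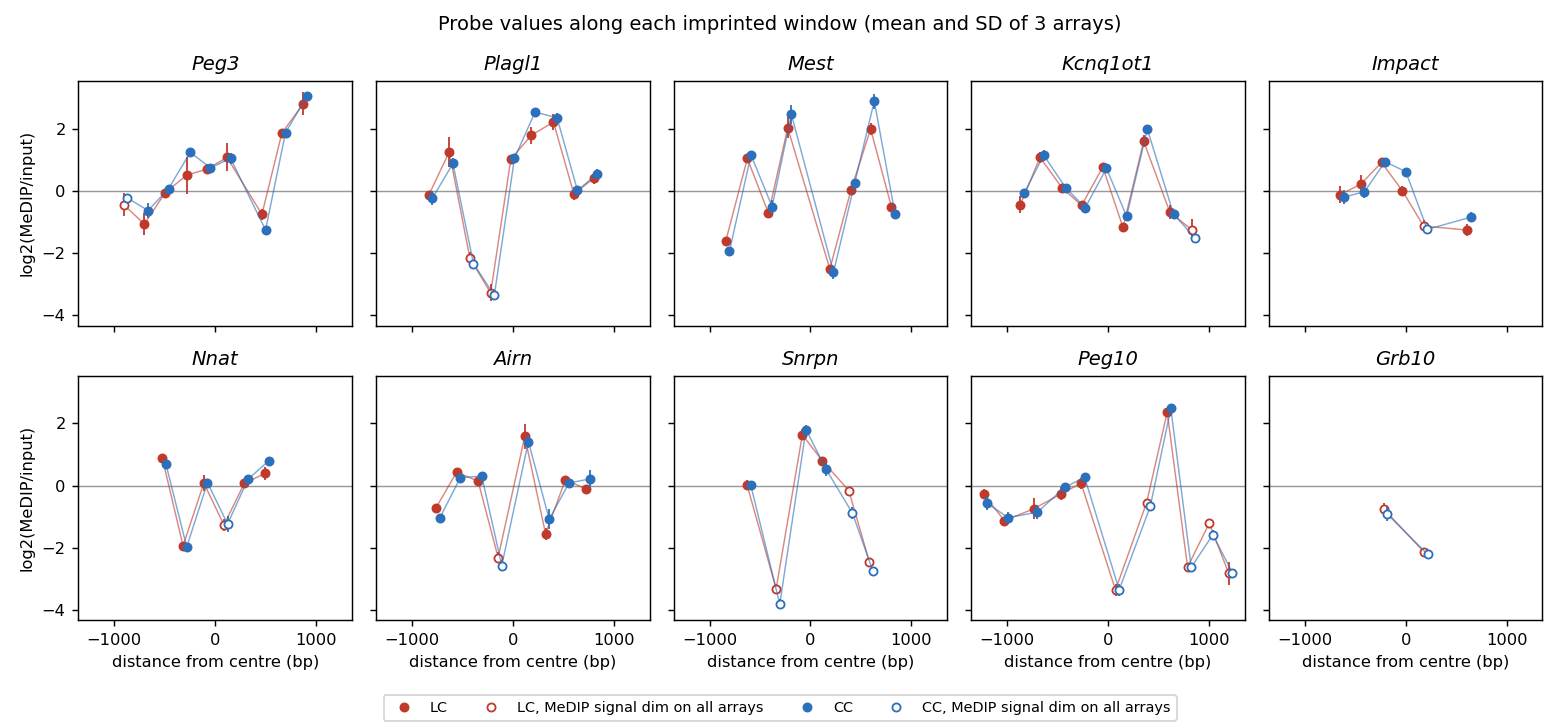
Each panel is 1 imprinted window, with the distance of a probe from the window's center in bp on the x axis and log2(MeDIP/input) on the y axis. Points are means of 3 LC (red) or 3 CC (blue) arrays with the SD as bars, drawn slightly apart, and open points mark probes whose MeDIP signal was not well above background on any array. High and low probes alternate within a window, from 2.41 to an open point at -3.34 in Peg10, and the profiles of LC and CC run together.

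Beside the promoter regions within 250 kb, the windows fell on either side. Peg3 exceeded the median of its 8 neighbors by 0.56, on 6 of 6 arrays, and was above each of the 8. Mest exceeded its 10 neighbors by 0.48 on 6 of 6 arrays and was above 9 of them, but with only the 2 neighbors within 100 kb the difference was -0.07 and 2 of 6 arrays were above. Plagl1 exceeded its 7 neighbors by 0.10 on 6 of 6 arrays. Peg3 and Plagl1 were above their neighbors on 6 arrays at 100 kb and at 500 kb as well.

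Below their neighbors on all 6 arrays were Kcnq1ot1 (-0.23), Nnat (-0.32), Airn (-0.39) and Peg10 (-1.34). The measured Grb10 values were below too, without a measured level behind them. With neighbors within 100 kb, Kcnq1ot1 (0.12) and Nnat (0.19) turned to the other side, each with 1 neighbor, and Peg10 had none. Snrpn (-0.05) and Impact (0.01) lay close to their neighbors, but with its 2 neighbors within 100 kb Snrpn differed by -0.22 and was below them on 6 of 6 arrays. Relative to its 4 neighbors, Snrpn averaged 0.08 on the LC arrays and -0.18 on the CC arrays.

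**Figure D3:**
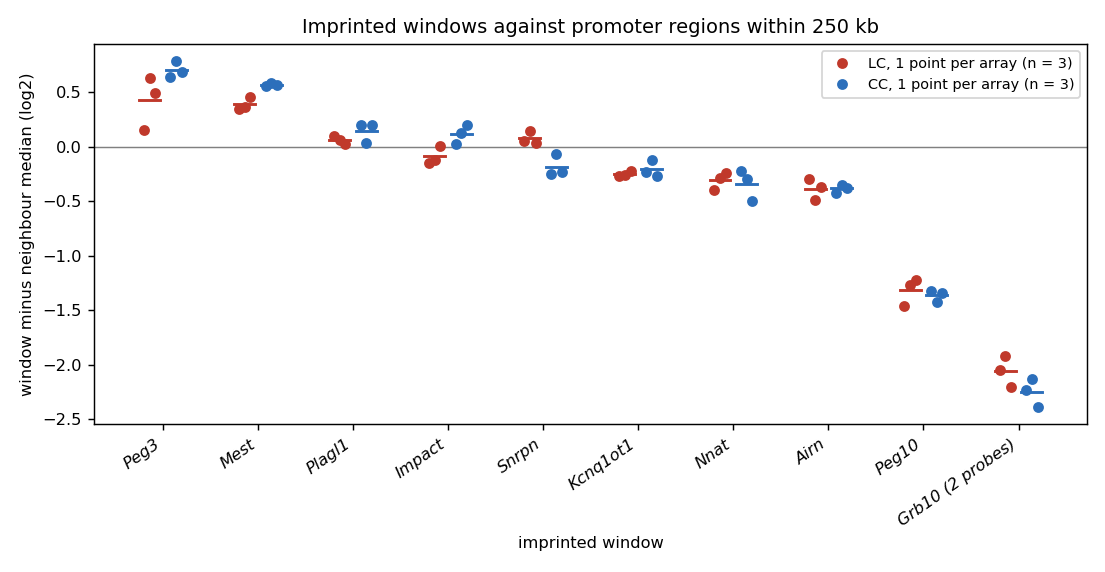
The y axis gives the level of each imprinted window minus the median level of the promoter regions within 250 kb on the same array (log2), and the x axis the windows in order of that difference. Points are single arrays (3 LC, 3 CC) and short lines group means. Peg3, Mest and Plagl1 lie above 0 on all arrays, and Kcnq1ot1, Nnat, Airn and Peg10 below, while the Grb10 points rest on 2 probes with no MeDIP signal well above background.

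The comparison of LC with CC asked whether these marks, which are set in the germ line, differed in offspring of dams on the low chromium diet. By limma's moderated test with Benjamini-Hochberg adjustment over all regions, Mest was lower and Snrpn was higher in LC, and the 7 other tested windows did not pass. That is 1 of 9 windows lower, against 8.84% of all regions, and 1 of 9 higher, against 10.2%. The share of called windows was thus near that of all regions. The median difference over the windows was -0.06 and that over all regions 0.02, with 6 of 9 windows below 0. 3 arrays against 3 cannot give an exact permutation p below 0.1, so that the p-values rest on the spread shared across regions.

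Snrpn differed most. The LC arrays were at -0.57, -0.56 and -0.61 and the CC arrays at -0.91, -0.76 and -0.86, so that every LC array was above every CC array. The difference LC minus CC was 0.27 (SE 0.05, 95% confidence interval 0.15 to 0.38, limma adjusted p = 0.0193). Within the 3 scan days, each of which held 1 LC and 1 CC array, it was 0.35, 0.21 and 0.25. With the scan day as a block the limma adjusted p was 0.0507, and it was 0.0831 without CC replicate 1 and 0.0721 without CC replicate 3. These 3 fits called 0 of the 22585 regions, so that the lost call is not particular to Snrpn. The difference of 0.27 includes probe 5, whose input signal was not well above background on most arrays. Over the 5 probes with input signal well above background on all arrays it was 0.18 (SE 0.06, limma adjusted p = 0.0501). That fit called 10.9% of all regions higher.

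The Snrpn difference lay mostly in probes with little MeDIP signal. 3 of its 6 probes (2, 5 and 6) had no MeDIP signal well above background on any array, and they are the 60-base probes of the window. Over the 3 other probes the difference was 0.03 (SE 0.06, limma adjusted p = 0.739). That mean joins opposite signs, with 0.27 at probe 4 (limma adjusted p = 0.173), -0.17 at probe 3 (limma adjusted p = 0.365) and -0.005 at probe 1. The level over these 3 probes was 0.80, against a median of 0.34 for all regions over such probes, a choice of probes that was made after the data were seen and that keeps those with more MeDIP signal.

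Mest was at -0.02, -0.05 and -0.04 on the LC arrays and at 0.07, 0.16 and 0.12 on the CC arrays. Every LC array was below every CC array, and the difference was -0.15 (SE 0.05, 95% confidence interval -0.25 to -0.05, limma adjusted p = 0.0476). Within scan days it was -0.09, -0.20 and -0.16, and with the scan day as a block the limma adjusted p was 0.0836. When the outlier probe was kept, the limma adjusted p was 0.126, and without any 1 of the 6 arrays it was 0.0600 to 0.143. The fits with the block, without CC replicate 1 and without CC replicate 3 called 0 of all regions. Over probes well above background in both channels the Mest difference was -0.19 (limma adjusted p = 0.0140), in a fit that called 21.7% of all regions lower and in which 63.5% of all regions were below 0.

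Kcnq1ot1 also had every LC array (-0.08, -0.06 and -0.03) below every CC array (0.06, 0.05 and -0.03), but the nearest arrays of the groups were at -0.0276 and -0.0259. The difference was -0.08 (95% confidence interval -0.19 to 0.02, limma adjusted p = 0.226). Windows with all LC arrays below all CC arrays were thus 2 of 9, against 20.5% of all regions, and with all LC arrays above 1 of 9, against 24.1%.

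In the 6 other tested windows the groups overlapped. Peg3 had a difference of -0.14 (95% confidence interval -0.34 to 0.05, limma adjusted p = 0.254), with LC replicate 1 below all other arrays. The Peg3 difference was -0.03 without LC replicate 1 and -0.22 without LC replicate 2. The difference was -0.10 for Impact (-0.23 to 0.03), -0.06 for Nnat (-0.20 to 0.09) and -0.05 for Plagl1 (-0.16 to 0.06). It was 0.02 for Peg10 (-0.11 to 0.15) and 0.01 for Airn (-0.09 to 0.12). These intervals bound the change of a window mean that 3 arrays per group leave possible, and the signs for Airn, Peg10, Nnat and Kcnq1ot1 turned under other scalings of the arrays. Plagl1 passed over probes well above background in both channels (-0.18, limma adjusted p = 0.0322, 21.7% of regions called lower) and in the authors' processed values (-0.12, limma adjusted p = 0.0412, 9.26% of regions called lower). The Grb10 window was not tested, and its whole run, with 6 further probes, had a difference of 0.06 (limma adjusted p = 0.490).

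Single probes showed 5 calls among 74. Lower in LC were 3 (4.29% of all probes were called lower) and higher were 2 (1.75% of all probes). Probe 8 of Mest fell by 0.89 (SE 0.15, limma adjusted p = 0.0320), from 2.93, 3.08 and 2.62 on the CC arrays to 2.12, 2.06 and 1.78 on the LC arrays. It is the highest probe of its window, and no array of one group reached the other.

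Probe 6 of Plagl1 fell by 0.74 (SE 0.14, limma adjusted p = 0.0368), with CC arrays at 2.42, 2.62 and 2.54 and LC arrays at 1.53, 2.07 and 1.75. Probe 4 of Impact fell by 0.60 (SE 0.11, limma adjusted p = 0.0346), with CC arrays at 0.51, 0.62 and 0.71 and LC arrays at 0.02, -0.13 and 0.14. All 3 probes had a signal well above background in both channels on every array. Without any 1 of the CC arrays limma called 0 of the 174276 probes of the array, the window probes included (8 to 12 of these lower and 6 to 8 higher at an unadjusted p under 0.05).

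Probe 7 of Peg3, the lowest of its window, rose by 0.50 (SE 0.11, limma adjusted p = 0.0447), from -1.33, -1.18 and -1.25 on the CC arrays to -0.56, -0.78 and -0.91 on the LC arrays. It moved against the mean of its window. The other probe called higher was probe 5 of Snrpn (limma adjusted p = 0.0319), for which no fold is given, because its MeDIP signal was not well above background on any array and its input signal on 1 of 6.

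Over the 74 probes, 40 were lower and 34 higher in LC. Of the 17 probes with no MeDIP signal well above background, 13 (76.5%) were higher in LC, against 83.5% of all such probes of the array. Of the 57 others, 36 (63.2%) were lower, against 50.6% of all others. The LC arrays were the dimmer ones in the input channel, with a median signal above background of 105.25 to 169 intensity units against 239.5 to 333.5 on the CC arrays, and the part of this in the differences was not tested.

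A Kolmogorov–Smirnov (KS) search like that of the study's methods was rebuilt on the group means, with windows of 750 bp and peaks of at least 2 adjacent probes with a score (-log10 of the exact one-sided p) of at least 2. It found a peak lower in LC in 0 of the windows, against 4.1% of the tested regions, and a peak higher in LC in 1, Snrpn, against 2.2%. The search used all 6 Snrpn probes, 3 of which had no MeDIP signal well above background on any array. The highest Snrpn score was 2.55. This score counts probes, not mice, as the units. With windows of 1000 bp, Peg3 had a lower peak too, where 6.73% of the tested regions had one. In the authors' processed values Peg3 had a lower peak and Snrpn had none. In those values 8.78% of the tested regions had a lower peak and 6.68% a higher one.

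The ratio was then taken apart into its channels. In the input channel, which is DNA without enrichment, Impact was higher in LC by 0.16 (SE 0.05, limma adjusted p = 0.0418). This call was lost without any 1 of the arrays other than LC replicate 3. The input fit without CC replicate 3 called 0 of the 22585 regions, so that this loss is not particular to Impact. The other fits that lost it called 4.38% to 13.6% of all regions higher. Impact was the 1 window called higher, against 13.1% of all regions, and 0 windows were called lower by limma (1 at an unadjusted p under 0.05), against 7.29%. The Snrpn input signal differed by -0.17 (95% confidence interval -0.30 to -0.04, limma adjusted p = 0.0701) and that of Mest by 0.13 (0.03 to 0.23, limma adjusted p = 0.0608). The Snrpn input difference passed with the scan day as a block (limma adjusted p = 0.0475) and without CC replicate 2 (-0.23, limma adjusted p = 0.0277). In both windows the sign in the input channel was opposite to that of the ratio.

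In the MeDIP channel alone, limma called 0 of the 9 windows in either direction (0 at an unadjusted p under 0.05). Of all regions, 0.0133% were called lower and 0.0% higher. At an unadjusted limma p under 0.05, 1509 regions were lower and 595 higher in this channel. Snrpn differed there by 0.06 (95% confidence interval -0.01 to 0.13) and Mest by -0.06 (-0.14 to 0.02). The input and MeDIP differences were not tested against each other. The LC arrays sat at slide position 1 and the CC arrays at slide position 3, and the part of position in any difference cannot be told apart from that of the diet.

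**Figure D4:**
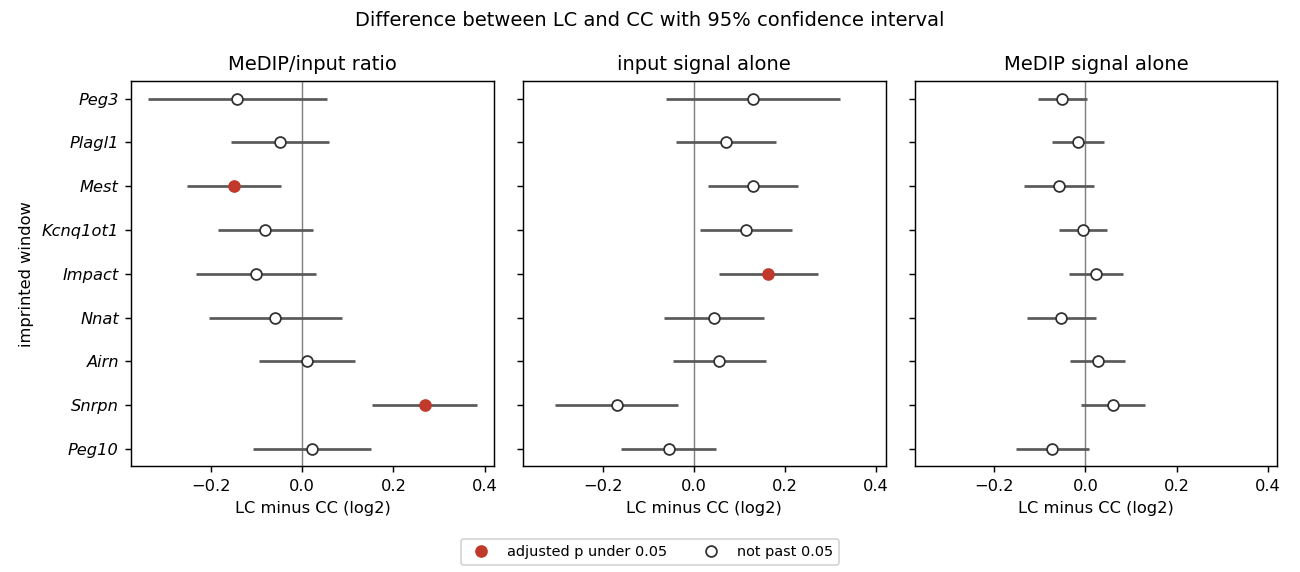
The x axis gives LC minus CC (log2) for the MeDIP/input ratio, the input signal and the MeDIP signal, and the y axis the 9 tested imprinted windows. Points are differences of the means of 3 LC and 3 CC arrays, bars are limma's 95% confidence intervals, and filled points passed the adjusted p of 0.05. Snrpn (0.27) and Mest (-0.15) pass in the ratio, Impact (0.16) passes in the input and no window in the MeDIP signal.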

How the data were processed

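Each of 6 promoter arrays carried Cy5-labeled MeDIP DNA and Cy3-labeled input DNA of 1 mouse (3 LC, 3 CC), always in this dye orientation. The deposited scanner files (Agilent Feature Extraction 11.0.1.1) give the raw median intensity and a processed intensity of each dye, background-subtracted and scaled per dye, flags for outlier, saturated and well-above-background spots, and a log10 ratio. That deposited log10 ratio served only to check the direction (r of at least 0.999 per array). A table of log2 values processed by the authors, with a normalization not given in the sources used here, correlated at 0.866 to 0.904 with the ratio of its own array and served as an alternative.

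Control features (5827) and 362 outlier probes were left out. log2(Cy5/Cy3) of the processed signals was centered on each array's median, averaged per region and fitted as LC minus CC with limma 3.58.1 (lmFit and eBayes, R 4.3.3), with Benjamini-Hochberg adjustment over 22585 regions or 174276 probes and a threshold of 0.05. Arrays were neither loess- nor quantile-normalized, since promoters may shift one way. Each channel was tested likewise after centering. Other tables and the figures were made with Python 3.11.15. The fit and the KS search were tested on simulated data. The number of arrays limits the precision.

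The members and the lists were chosen with earlier results of these data known. All 10 windows are named, with the highest and lowest probe of each and every called probe where these were 5 or fewer. Groups were taken from the sample titles. Same-numbered replicates share a scan day, and their deviations from the group means correlated at -0.156, 0.115 and -0.001. Those of differently numbered arrays correlated at -0.225 to 0.177. With 3 arrays per group these values cannot decide whether the numbers pair the mice, and the numbers were treated as not pairing them. The files pair no genes with probes, and gene names follow the mm9 windows. Alternatives were normexp (offset 50), loess, quantile normalization, an equal spread on every array, the authors' values, brighter probes, outliers kept, replicate and slide blocks, the methods' t-test, limma with trend and robust variance, the median over probes, other region and neighbor limits, other KS settings and each array left out.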

Additional observations from a re-analysis of the deposited data

How the results depend on the processing

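Limits are the small number of arrays, LC arrays that were dimmer in the input channel, slide positions that cannot be told apart from the groups, and 17 of 74 probes with no MeDIP signal well above background. The causes of the changes listed here were not tested. Whole runs, and a restriction to probes bright (well above background on all arrays) in both channels, were chosen after the data were seen.

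Windows called lower and higher by limma were 1 and 1. Normexp left 0 and 0 (1 and 2 at an unadjusted p under 0.05), as did an equal spread (1 and 1 unadjusted). The slide as a block left 0 and 0 too (0 and 1 unadjusted). LC replicate 3 and CC replicate 3 were each alone on a slide, so that the difference in that fit rests on replicates 1 and 2. The replicate block, whose numbers were treated as not pairing the mice, also left 0 and 0 (1 and 1 unadjusted). By the methods' t-test 1 and 1 passed unadjusted, and 0 and 0 adjusted. Both blocks, the t-test and the fits without CC replicate 1 or 3 called 0 of all 22585 regions, so that these zeros say nothing about the windows, whereas normexp called 6.76% lower and 20.7% higher and an equal spread 4.39% and 1.38%. Quantile normalization, outlier probes kept and the median over probes each gave 0 lower and 1 higher. Over all regions, quantile normalization called 4.59% lower and 2.3% higher, outlier probes kept 8.54% and 9.77% and the median over probes 5.19% and 3.29%. Loess gave 1 lower and 0 higher, as did the authors' processed values, in which the lower window was Plagl1 and not Mest. Loess called 6.4% of all regions lower and 3.13% higher, and the authors' values 9.26% and 7.89%. Probes bright in the input channel, and probes bright in both channels, gave 2 lower (Mest and Plagl1) and 0 higher, where 14.5% and 21.7% of all regions were called lower. Of all regions, 10.9% and 6.03% were called higher in these fits. When arrays were left out singly, the lower count was 0 each time and the higher count 0 to 1, with 0 higher without CC replicate 1 and without CC replicate 3 (1 unadjusted in each). Over all regions, leaving out arrays gave 0.0% to 10.5% called lower and 0.0% to 12.7% called higher. Snrpn stayed above 0 in 21 of 21 alternatives (0.03 to 0.36) and passed in 10, and Mest stayed below 0 in 21 of 21 (-0.19 to -0.02) and passed in 6. For both, the replicate block, the methods' t-test, limma with trend and robust variance and windows cut into runs cannot move the difference. The same holds for outlier probes kept in Snrpn, and for whole runs and probes bright in the input channel in Mest. Windows cut into runs repeats the reported fit, yet counts among the alternatives that passed. These counts are thus not counts of independent checks.

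Window probes called lower and higher were 3 and 2. The counts were 7 and 8 for normexp, 3 and 0 for loess, 1 and 1 for quantile normalization and for an equal spread, 8 and 2 for the authors' values, 6 and 5 for probes bright in the input channel and 7 and 2 for probes bright in both channels. Over the whole array, 4.29% of all probes were called lower and 1.75% higher as reported. The shares were 8.2% and 13.5% for normexp, 1.67% and 0.184% for loess and 1.4% and 0.208% for quantile normalization. They were 1.56% and 0.224% for an equal spread and 7.74% and 4.77% for the authors' values. Probes bright in the input channel gave 9.51% and 4.56%, and probes bright in both channels 12.2% and 3.38%. The replicate block gave 3 and 1, against 1.77% and 0.296% of all probes. With slides blocked, limma called 0 and 0 (11 and 6 unadjusted), and 0 and 0 passed the methods' t-test once adjusted (7 and 9 unadjusted). Of all probes, the slide block called 0.0% in each direction and the t-test 0.000574%. Leaving out arrays gave 0 to 4 lower and 0 to 3 higher, against 0.0% to 6.09% and 0.0% to 3.65% of all probes.

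The median level over windows, -0.18, was -0.071 after normexp, -0.070 after loess, -0.099 in the authors' values, -0.095 with the median over probes, -0.013 with probes bright in the input channel and 0.16 in both channels. The median of all regions, -0.15 as reported, was 0.022, -0.021, -0.048, 0.015, -0.091 and 0.34 in these settings, in the same order. Windows in the top 10% were 0 instead of 1 after loess, in the authors' values, with the median over probes and with whole runs. With probes bright in both channels, the 1 window in the top 10% was Plagl1 and not Peg3. In the input channel, lower counts were 1 (Snrpn) with the replicate block and 0 to 1 with arrays left out, and higher counts were 0 to 1, with 1 without LC replicate 3. KS peaks lower in LC were 1 with windows of 1000 bp (6.73% of all tested regions) and 1 in the authors' values (8.78%). Peaks higher in LC were 0 at a score of at least 3 (0.164% of all tested regions) and 0 in the authors' values (6.68%). Windows below their neighbors on 6 arrays were 3 within 100 kb instead of 5.

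Signs turned only in windows that were not called. Airn was -0.075 after loess, -0.013 after quantile normalization, -0.018 with an equal spread, -0.045 in the authors' values, -0.025 with probes bright in the input channel, -0.085 in both channels, -0.10 with the median over probes and -0.019 to 0.030 with arrays left out. Peg10 was -0.033 after loess, -0.046 after quantile normalization, -0.071 with an equal spread, -0.015 in the authors' values, -0.016 with slides blocked, -0.039 with probes bright in both channels and -0.023 to 0.054 with arrays left out. Kcnq1ot1 was 0.063 and Nnat 0.090 after normexp, and 0.035 and 0.027 in the authors' values. Nnat ran from -0.10 to 0.0043 with arrays left out, and Impact was 0.041 with the median over probes. In single channels, Nnat was -0.026 in the input after quantile normalization, and Kcnq1ot1 ran from -0.016 to 0.0014 in the MeDIP signal with arrays left out.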
